A study of Mus musculus with 12 samples.

Results

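Ifng, the gene of the cytokine interferon gamma (IFN-γ), and 8 genes that IFN-γ is known to induce or to be restrained by were followed across 4 groups of regulatory T (Treg) cell libraries. The 9 genes, Ifng, Cxcl9, Cxcl10, Irf1, Gbp2, Gbp4, Igtp, Irgm1 and Socs1, were taken by name from the 14259 gene symbols of the count table by a rule that uses no measured value. The list was nevertheless drawn up with earlier results of these data known. Counts of members called therefore describe these data and are not independent evidence. All 9 were present, and all 9 were among the 13782 genes that passed the filter on low counts.

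The libraries are bulk RNA sequencing of Treg cells sorted from mouse bone marrow (BM) on day 14 of a leukemia model, with 3 libraries in each group and C57BL/6 as the strain of all. In the ST2-KO tumor group the host received ST2-/- Treg cells, which lack the receptor for IL-33, together with MLL-AF9 leukemia cells. In the Tbet-KO tumor group it received Tbet-/- Treg cells, which lack the transcription factor encoded by Tbx21, with the same leukemia. The WT tumor group had WT Treg cells with the leukemia, and the WT no tumor group had WT Treg cells without it. All hosts were irradiated and also received WT conventional T cells and T cell-depleted marrow, which the 4 groups share. Treg cells were gated as CD4+CD25+ cells that were eGFP+ in the WT and ST2-/- groups, through a Foxp3 reporter, or CD127- in the Tbet-/- group, so the gate differed between Tbet-/- and the rest. The MLL-AF9 cells carry eGFP as well, and only the WT no tumor group had none of them. The labels do not say whether the 3 libraries of a group came from separate mice, so the p-values here measure the spread between these libraries, which may be technical.

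IFN-γ is made mainly by T cells and NK cells and binds a receptor that signals through the kinases JAK1 and JAK2. The response acts at gamma-activated sites (GAS) in DNA and switches on IRF1, which in turn acts at IRF elements of further genes, among them chemokines that draw CXCR3+ T cells and GTPases that defend the cell against microbes. SOCS1, itself induced by the pathway, blocks JAK activity and closes the loop.

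The promoter windows of some members are shown here, because such windows hold the sites at which the response can act. The reason for each choice is given with it, and for Igtp it is the matches and not a measurement. Each runs from 250 bases before to 50 bases after the RefSeq transcription start on GRCm38.p6, 5′ to 3′ on the gene's own strand. Capitals mark matches to the GAS letters TTCNNNGAA, which read the same on both strands, or to the IRF letters GAAANNGAAA, searched on both strands (TTTCNNTTTC on the other). Ifng is the cytokine gene, on chromosome 10 (chr10:118440796-118441095, plus strand). Cxcl9 had the largest difference among the members between WT tumor and WT no tumor (chr5:92328030-92328329, minus strand). Gbp2 was among the members that separated the 2 knockout groups (chr3:142620413-142620712, plus strand). Igtp holds both kinds of match (chr11:58199306-58199605, plus strand). Socs1 was the member that went the other way (chr16:10785487-10785786, minus strand).
Ifng: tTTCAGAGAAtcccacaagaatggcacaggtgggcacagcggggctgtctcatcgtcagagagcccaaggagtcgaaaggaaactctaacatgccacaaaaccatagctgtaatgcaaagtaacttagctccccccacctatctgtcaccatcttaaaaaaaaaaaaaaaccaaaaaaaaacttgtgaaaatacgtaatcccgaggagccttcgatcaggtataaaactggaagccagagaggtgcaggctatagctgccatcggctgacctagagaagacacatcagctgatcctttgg
Cxcl9: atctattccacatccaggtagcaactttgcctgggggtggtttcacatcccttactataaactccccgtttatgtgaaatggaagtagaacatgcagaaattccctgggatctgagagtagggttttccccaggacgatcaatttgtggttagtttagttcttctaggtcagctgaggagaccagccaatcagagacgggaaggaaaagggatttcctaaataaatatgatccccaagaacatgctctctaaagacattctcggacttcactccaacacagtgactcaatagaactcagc
Gbp2: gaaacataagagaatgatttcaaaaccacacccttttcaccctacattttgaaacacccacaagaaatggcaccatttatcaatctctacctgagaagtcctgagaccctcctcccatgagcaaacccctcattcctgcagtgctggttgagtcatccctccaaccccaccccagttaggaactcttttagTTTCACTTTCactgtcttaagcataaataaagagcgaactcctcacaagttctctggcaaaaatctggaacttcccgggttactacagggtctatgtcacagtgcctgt
Igtp: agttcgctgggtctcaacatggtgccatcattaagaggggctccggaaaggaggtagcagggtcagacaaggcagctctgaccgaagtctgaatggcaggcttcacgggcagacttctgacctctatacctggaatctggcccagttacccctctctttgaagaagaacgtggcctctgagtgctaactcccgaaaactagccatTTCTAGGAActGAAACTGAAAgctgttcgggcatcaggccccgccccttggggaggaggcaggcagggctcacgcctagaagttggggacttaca
Socs1: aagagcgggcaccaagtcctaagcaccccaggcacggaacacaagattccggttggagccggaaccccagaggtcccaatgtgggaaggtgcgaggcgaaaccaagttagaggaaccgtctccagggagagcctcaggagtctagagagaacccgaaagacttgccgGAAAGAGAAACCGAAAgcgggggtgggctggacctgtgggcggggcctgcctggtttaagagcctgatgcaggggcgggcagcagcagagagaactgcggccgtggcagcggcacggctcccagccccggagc

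Of the 9 members, 8 had a window in the RefSeq table, 1 of them (Irf1) with 2, so that 9 windows were read, and Gbp4 had none. GAS letters were found in 3 windows, those of Ifng, Irf1 and Igtp, against 8.30% of all 32851 windows in the table. IRF letters were found in 5 windows, those of Cxcl10, Gbp2, Igtp, Irgm1 and Socs1, against 3.44% of all windows. In Igtp the GAS match lay 45 to 37 bases before the start and the IRF match 34 to 25 bases before it, without overlap. In Irgm1 and in Socs1, 2 IRF matches shared 4 letters, GAAA, as the 16 capitals of the Socs1 window show. The Cxcl9 window and the second Irf1 window held neither set of letters. These are matches of letters in a short window and were not tested as binding sites. Of the members without a printed window, Cxcl10 lies on the chromosome of Cxcl9 (chr5:92346638-92348889), Irf1 at chr11:53770014-53778374, Irgm1 at chr11:48861968-48871683 and Gbp4 at chr5:105115767-105139586, from the GENCODE annotation of GRCm38.

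Levels are counts per 1000000 (CPM) after TMM scaling, which assumes that most genes do not differ between libraries. Library totals were 13272943 to 18042521 counts. Il1rl1, the gene of ST2, was not lost in the libraries labelled ST2-KO, which had 1130 to 1229 counts each, against 1967 to 2290 in WT tumor and 1053 to 1305 in WT no tumor. Tbx21 had 195 to 258 counts in the libraries labelled Tbet-KO, against 560 to 773 in WT tumor and 168 to 289 in WT no tumor. Counts per gene cannot show a deleted exon, and the column names of the deposited tables give the ST2-KO and WT tumor libraries the same sequencer sample numbers, so both knockout groups are named here by their labels.

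Genes of other cells were detected in these libraries and their levels moved with the groups. The summed level of 13 T cell genes was 881 to 912 CPM in ST2-KO tumor, 1897 to 1942 in Tbet-KO tumor, 1733 to 1772 in WT tumor and 665 to 698 in WT no tumor. That of 13 monocyte and macrophage genes was 3111 to 3192, 3670 to 3768, 4041 to 4127 and 2745 to 2764 CPM in the same order of groups. That of 12 granulocyte genes was 10970 to 11530, 13940 to 14080, 17000 to 17290 and 12830 to 13130 CPM. Genes of B cells ranged more widely, with 1994 to 2087 CPM in ST2-KO tumor, 89.5 to 95.2 in Tbet-KO tumor, 806 to 823 in WT tumor and 2801 to 2844 in WT no tumor. The 5 NK cell genes summed to 309 to 325, 375 to 401, 425 to 437 and 240 to 258 CPM. The 4 known targets of MLL fusions, which normal blood progenitors express too, summed to 75.7 to 83.2 CPM in ST2-KO tumor, 194.6 to 201.5 in Tbet-KO tumor, 81.3 to 91.1 in WT tumor and 8.06 to 9.18 in WT no tumor. The 4 erythroid genes summed to 124.5 to 127.5, 45.02 to 57.05, 291.5 to 306.4 and 197.6 to 208.2 CPM, and the 2 CD8 T cell genes to 2.28 to 3.22, 8.56 to 11.1, 9.44 to 11.6 and 10.1 to 12.8 CPM. The ribosomal RNA gene Rn45s took 7.07 to 7.44% of the counts in ST2-KO tumor, 4.72 to 5.20% in Tbet-KO tumor, 3.53 to 3.66% in WT tumor and 4.49 to 4.93% in WT no tumor. No marker of these lists was at 0 in all libraries of a group. The 9 Treg cell markers, which include Foxp3, summed to 1393 to 1436, 1692 to 1705, 2037 to 2101 and 919 to 938 CPM. In every group the sum of the granulocyte genes was larger than this Treg sum. The 7 dendritic cell genes summed to 39.45 to 43.39, 48.54 to 52.3, 63.58 to 68.97 and 55.31 to 61.11 CPM. The part of these other cells, and of Rn45s, in the results was not tested. In bulk RNA, fewer cells of a type and less RNA per cell cannot be told apart. The members' fold changes and the counts of list genes are therefore also given on a T cell scale, for which each library was sized by its counts in those 13 T cell genes together. Against the TMM scale this shifts the median of all genes by -1.36 for WT tumor vs WT no tumor, 0.96 for ST2-KO tumor vs WT tumor, -0.14 for Tbet-KO tumor vs WT tumor, -1.10 for Tbet-KO tumor vs ST2-KO tumor, -0.40 for ST2-KO tumor vs WT no tumor and -1.50 for Tbet-KO tumor vs WT no tumor, all in log2 units. Sizing by T cell genes does not account for changes in other cells that express a gene. Fold changes of single genes that are no members are on the TMM scale, except for Il1rl1 and Tbx21 here. On the T cell scale Il1rl1 was called higher in ST2-KO tumor than in WT tumor (0.443), against 84.6% of tested genes higher. Tbx21 was called lower there in Tbet-KO tumor than in WT tumor (-1.535), against 33.2% of tested genes lower.

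Ifng was highest in WT tumor. It had 4.57, 6.13 and 5.07 CPM in the libraries labelled ST2-KO, 11.1, 12.3 and 13.3 CPM in those labelled Tbet-KO, 16.7, 16.8 and 19.8 CPM in WT tumor and 5.54, 7.39 and 5.72 CPM in WT no tumor. The 3 WT tumor libraries lay above all others, the 3 Tbet-KO libraries lay between, and the ST2-KO and WT no tumor libraries overlapped. These levels rest on 60 to 80 counts per ST2-KO library, 178 to 209 per Tbet-KO library, 260 to 310 per WT tumor library and 76 to 122 per WT no tumor library.

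Cxcl9, a chemokine for CXCR3+ T cells that IFN-γ induces strongly in macrophages, was set apart in WT tumor alone. It had 18.4, 14.3 and 11.3 CPM in ST2-KO tumor, 15.4, 15.1 and 15.9 CPM in Tbet-KO tumor, 57.3, 58.5 and 60.6 CPM in WT tumor and 10.9, 14.0 and 11.7 CPM in WT no tumor. No library of the other 3 groups came within reach of the WT tumor values, and those 3 groups lay close together. Cxcl10, a second CXCR3 ligand, had 7.38, 7.90 and 6.54 CPM in ST2-KO tumor, 6.999, 6.73 and 4.46 CPM in Tbet-KO tumor, 14.99, 15.7 and 15.2 CPM in WT tumor and 5.68, 5.27 and 4.93 CPM in WT no tumor. WT tumor again stood alone, and the Tbet-KO libraries overlapped both ST2-KO and WT no tumor.

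Irf1, the transcription factor that relays the signal, moved within a narrow range. It had 129.7, 121.3 and 130.8 CPM in ST2-KO tumor, 131.6, 125.3 and 130.4 CPM in Tbet-KO tumor, 167.3, 166.0 and 176.6 CPM in WT tumor and 138.3, 152.6 and 147.2 CPM in WT no tumor. The 2 knockout groups overlapped and lay below WT no tumor, which lay below WT tumor.

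Gbp2 and Gbp4 encode guanylate-binding proteins, GTPases that attack vacuoles holding microbes. Gbp2 had 63.3, 67.6 and 68.3 CPM in ST2-KO tumor, 104.8, 104.8 and 99.3 CPM in Tbet-KO tumor, 177.1, 176.1 and 172.9 CPM in WT tumor and 82.2, 75.6 and 78.7 CPM in WT no tumor. The 4 groups did not overlap, with ST2-KO lowest and WT tumor highest. Gbp4 had 103.8, 119.8 and 115.8 CPM in ST2-KO tumor, 164.5, 166.6 and 173.1 CPM in Tbet-KO tumor, 221.5, 218.7 and 224.0 CPM in WT tumor and 126.7, 114.8 and 126.2 CPM in WT no tumor. Here ST2-KO and WT no tumor overlapped, below Tbet-KO, which lay below WT tumor.

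Igtp and Irgm1 encode immunity-related GTPases that act on membranes around microbes. Igtp had 75.8, 72.5 and 69.0 CPM in ST2-KO tumor, 89.3, 83.8 and 84.8 CPM in Tbet-KO tumor, 145.3, 136.7 and 150.9 CPM in WT tumor and 67.6, 71.2 and 70.0 CPM in WT no tumor. WT tumor was highest, Tbet-KO second, and ST2-KO overlapped WT no tumor. Irgm1 had 91.0, 78.1 and 94.5 CPM in ST2-KO tumor, 91.0, 85.9 and 84.9 CPM in Tbet-KO tumor, 149.5, 150.6 and 150.7 CPM in WT tumor and 106.6, 106.7 and 113.2 CPM in WT no tumor. Both knockout groups overlapped and lay below WT no tumor, an order shared with Irf1 and not with Igtp.

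Socs1, the inhibitor, had 34.0, 28.6 and 29.3 CPM in ST2-KO tumor, 25.7, 25.8 and 27.2 CPM in Tbet-KO tumor, 24.0, 28.4 and 23.9 CPM in WT tumor and 26.6, 34.2 and 36.9 CPM in WT no tumor. It was the one member whose mean was lowest in WT tumor, and WT tumor overlapped Tbet-KO and WT no tumor. Per length, as deposited FPKM, the members in WT tumor ran from 14.0 ± 0.33 for Cxcl10, 14.8 ± 1.42 for Ifng, 19.1 ± 1.91 for Socs1 and 20.3 ± 0.56 for Cxcl9, through 48.8 ± 0.58 for Gbp4 and 50.6 ± 1.70 for Irf1, to 67.5 ± 0.24 for Irgm1, 71.4 ± 3.52 for Igtp and 71.5 ± 0.94 for Gbp2 (SD, n = 3).

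**Figure D1:**
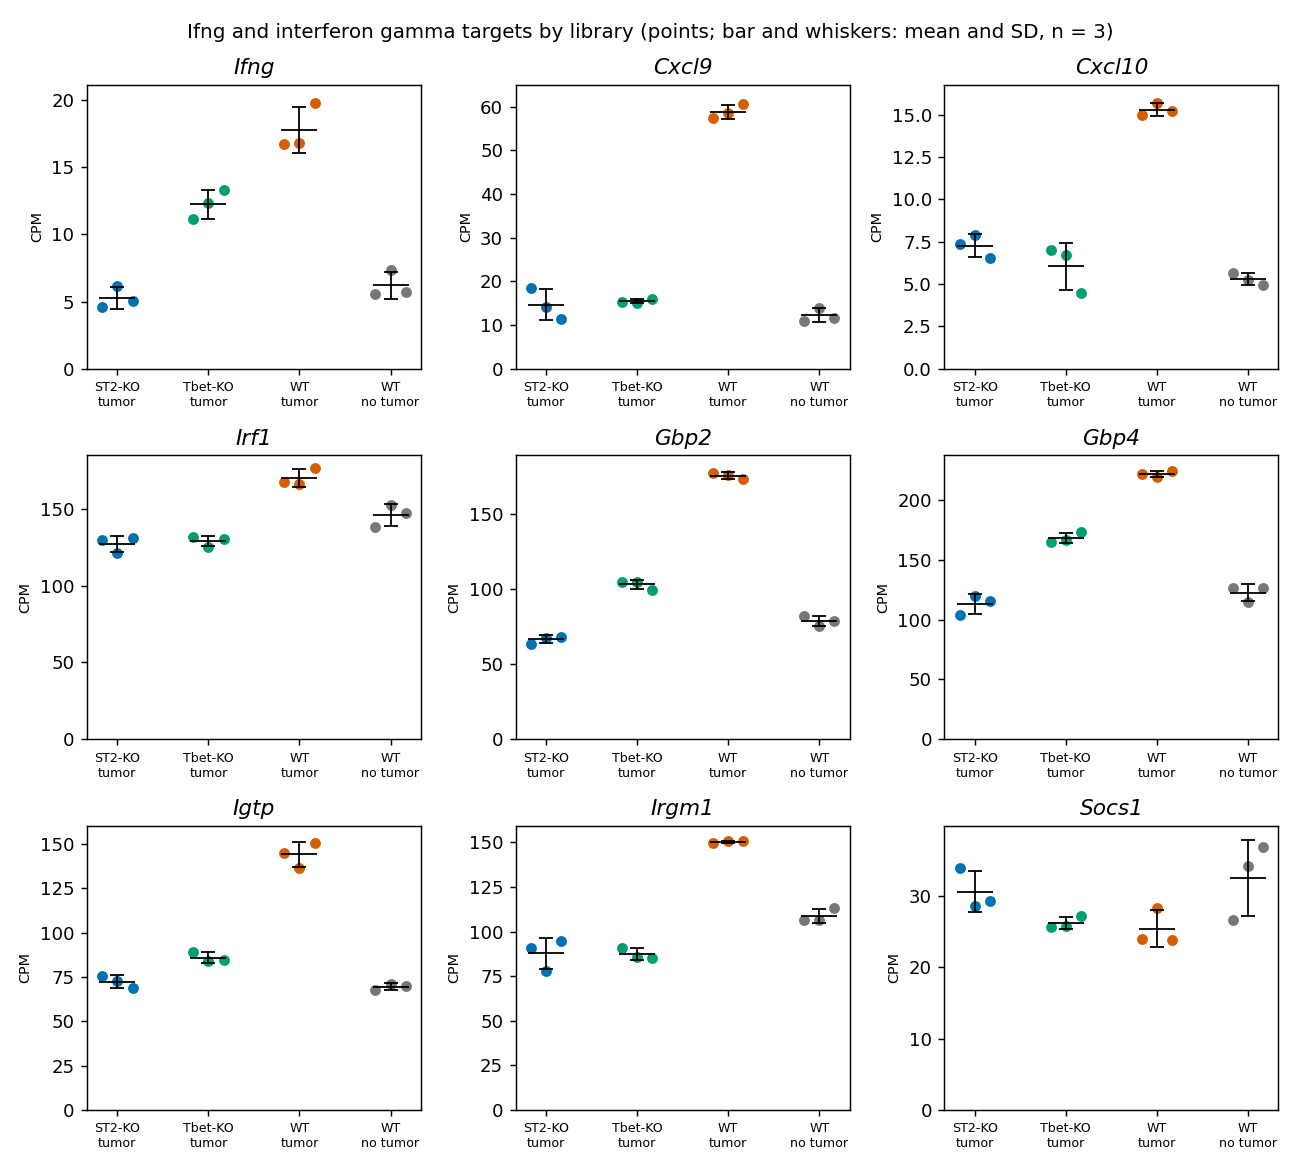
Level of each of the 9 genes in CPM (y axes, each from 0) in the 3 libraries of each group (points), with the mean and SD as bar and whiskers. Outside Socs1, the 3 WT tumor libraries lie above every other library on this scale, for Cxcl9 at 57.3 to 60.6 CPM against at most 18.4 CPM elsewhere. The share of all tested genes with such a separation was not counted.

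The comparison of WT tumor with WT no tumor asks what the leukemia changed in WT Treg libraries. On the TMM scale, 8 of the 9 members rose in WT tumor and 1, Socs1, fell, against 29.0% of all tested genes higher and 29.4% lower. The median log2 fold change of the members was 1.05, against 0.00 over all genes. Cxcl9 rose 4.80-fold (log2 fold change 2.26 ± 0.11 SE, adjusted p = 4.3e-31 in edgeR's quasi-likelihood test, Benjamini-Hochberg adjusted) and 98.3% of tested genes had a smaller log2 fold change. Cxcl10 rose 2.89-fold and Ifng 2.84-fold. The 4 GTPase genes rose by less, Gbp2 2.23-fold, Igtp 2.07-fold, Gbp4 1.81-fold and Irgm1 1.38-fold, and Irf1 rose 1.16-fold. Socs1 fell by 0.36 on the log2 scale with overlapping libraries (adjusted p = 0.0017 in edgeR's test). On the T cell scale the same comparison gave 1 member higher, Cxcl9 at 0.90, against 1.92% of tested genes, and 6 lower, against 86.3%, so that the direction of Irf1 (-1.15), Gbp2 (-0.21), Gbp4 (-0.51), Igtp (-0.32) and Irgm1 (-0.90) turned round. Ifng (0.14, adjusted p = 0.43 in edgeR's test) and Cxcl10 (0.17, adjusted p = 0.39 in edgeR's test) no longer passed on that scale. The median of the members there was -0.31, against -1.36 over all genes. Per 1000 T cell counts, Ifng had 10.1 ± 0.998 counts in WT tumor and 9.16 ± 1.70 in WT no tumor (SD, n = 3). Cxcl9 had 33.6 ± 1.14 in WT tumor and 17.97 ± 2.69 in WT no tumor (SD, n = 3). Macrophages can express Cxcl9, and the monocyte and macrophage genes summed to 4041 to 4127 CPM in WT tumor and 2745 to 2764 in WT no tumor. A T cell size does not account for them, so the Cxcl9 value is no level per cell.

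The comparison of the libraries labelled ST2-KO with WT tumor asks what loss of ST2 in Treg cells changed within the leukemia. On the TMM scale 8 members fell and 1, Socs1, rose, against 22.8% of tested genes lower and 23.1% higher. The median of the members was -0.99, against 0.00 over all genes. Cxcl9 stood at 24.9% of its WT tumor level and Ifng at 29.6% (log2 fold change -1.75 ± 0.17 SE, adjusted p = 4.6e-15 in edgeR's quasi-likelihood test, Benjamini-Hochberg adjusted). Gbp2 stood at 37.9%, Cxcl10 at 47.5%, Igtp at 50.2%, Gbp4 at 51.1%, Irgm1 at 58.5% and Irf1 at 74.9% of WT tumor. On the T cell scale 3 members were lower, Cxcl9 (-1.04), Ifng (-0.79) and Gbp2 (-0.44), against 0.639% of tested genes, and 3 were higher, Socs1 (1.23), Irf1 (0.55) and Irgm1 (0.19), against 84.6%, the last 2 with their direction turned round. The median of the members there was -0.03, against 0.96 over all genes. Rn45s took 7.07 to 7.44% of the counts in ST2-KO tumor and 3.53 to 3.66% in WT tumor, and library sizes without it and without hemoglobin and ribosomal protein genes changed no member's call in this comparison. Cxcl10 (-0.11), Igtp (-0.03) and Gbp4 (-0.01) did not pass on the T cell scale. Socs1 was higher by 0.27 on the TMM scale (adjusted p = 0.028 in edgeR's test), and this call was lost without ST2-KO replicate 1 (0.19), WT tumor replicate 1 (0.23) or WT tumor replicate 3 (0.23).

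The comparison of the libraries labelled Tbet-KO with WT tumor asks the same of loss of Tbet. Again 8 members fell, against 20.6% of tested genes lower, and none rose, against 18.1% higher, while Socs1 (0.05, adjusted p = 0.77 in edgeR's test) did not pass. The median of the members was -0.75, against 0.01 over all genes. Cxcl9 stood at 26.3% of its WT tumor level (log2 fold change -1.93 ± 0.11 SE, adjusted p = 3.5e-27 in edgeR's quasi-likelihood test, Benjamini-Hochberg adjusted) and Cxcl10 at 39.6%. Irgm1 stood at 58.1%, Gbp2 at 58.7%, Igtp at 59.6%, Ifng at 69.0%, Gbp4 at 75.9% and Irf1 at 75.9%. On the T cell scale, which shifts all genes by only -0.14 here and in the direction of the calls, 8 members were lower, against 33.2% of tested genes, and none higher, against 8.60%, with Cxcl9 at -2.06, Cxcl10 at -1.46 and Ifng at -0.67, while the uncalled Socs1 value changed sign to -0.09. The 13 T cell genes behind this scale did not move together on the TMM scale, with 8 higher, 3 lower and log2 fold changes from -0.72 to 0.84. Of the 9 Treg cell markers, 8 were lower and 1 higher on the TMM scale, with a median of -0.46. The gate and the B cell marker sum also differed between these 2 groups. The part of these differences in the members' values was not tested. Both knockout comparisons share the WT tumor libraries, so their values stand side by side and are not separate evidence.

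**Figure D2:**
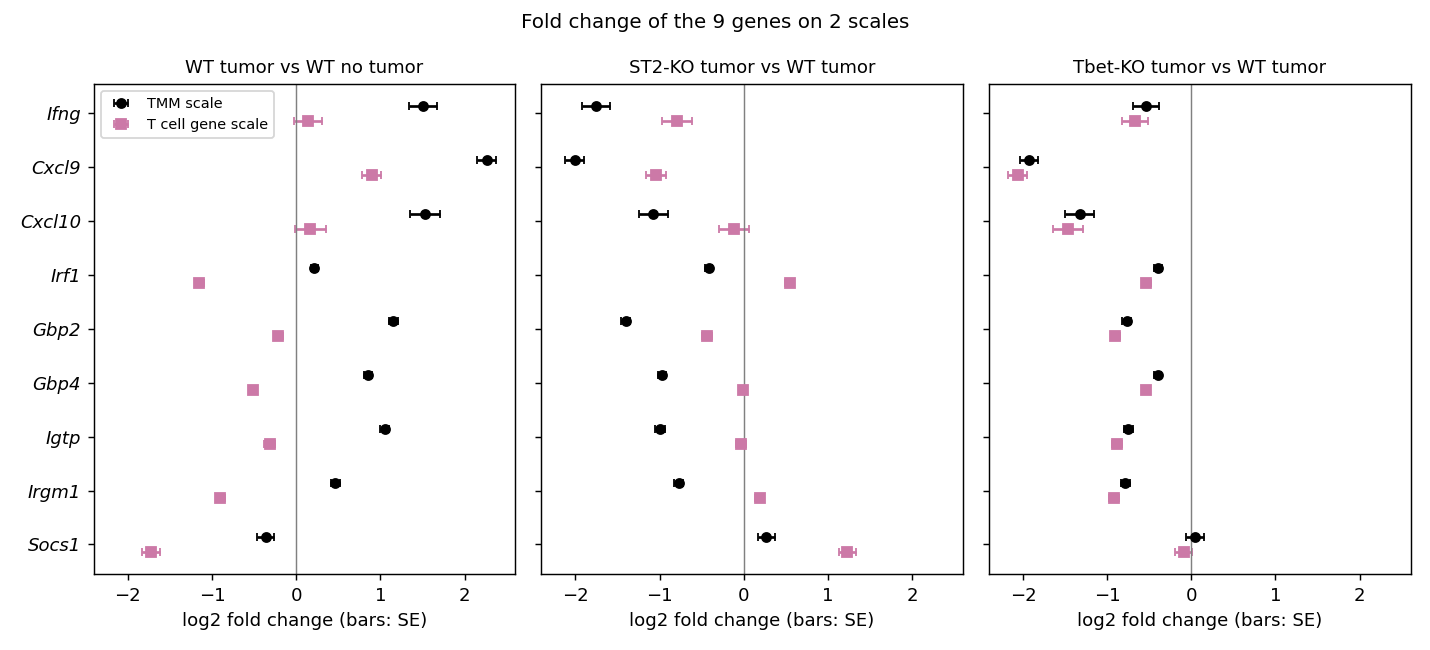
Log2 fold change (x axes) of each gene in 3 comparisons, with SE as bars, on the TMM scale (black circles) and on the T cell scale (pink squares). The squares lie left of the circles for WT tumor vs WT no tumor, where Irf1, Gbp2, Gbp4, Igtp and Irgm1 change sign, right of them for ST2-KO tumor vs WT tumor, where Irf1 and Irgm1 change sign, and close to them for Tbet-KO tumor vs WT tumor.

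The 2 knockouts were compared directly. The libraries labelled Tbet-KO had 4 members higher than those labelled ST2-KO, against 26.4% of tested genes higher, and none lower, against 27.4%. Ifng was 2.33-fold higher (log2 fold change 1.22 ± 0.17 SE, adjusted p = 4.1e-09 in edgeR's quasi-likelihood test, Benjamini-Hochberg adjusted), Gbp2 1.55-fold, Gbp4 1.48-fold and Igtp 1.19-fold. Cxcl9 (0.08 ± 0.12 SE), Cxcl10 (-0.25 ± 0.19 SE), Irf1 (0.02 ± 0.05 SE), Irgm1 (-0.01 ± 0.06 SE) and Socs1 (-0.22 ± 0.10 SE) did not pass, the last although its libraries did not overlap. On the T cell scale this comparison had no member higher, against 1.68% of tested genes, and 8 lower, against 85.8%, Ifng at 0.12 not passing, so the direction of Gbp2 (-0.46), Gbp4 (-0.53) and Igtp (-0.85) turned round.

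Set against WT no tumor, the libraries labelled ST2-KO had no member higher, against 15.0% of tested genes, and 3 lower, against 17.0%. The 3 were Irf1 (-0.20), Gbp2 (-0.25) and Irgm1 (-0.31), which were lower on the T cell scale as well (-0.60, -0.65 and -0.71). Ifng (-0.25 ± 0.18 SE), Cxcl9 (0.26 ± 0.13 SE) and Cxcl10 (0.46 ± 0.19 SE) did not pass, though without ST2-KO replicate 3 Cxcl9 (0.41) and Cxcl10 (0.53) did, and without WT no tumor replicate 2 Cxcl9 (0.37) did. With T cell scaling 7 members were lower, against 63.7% of tested genes, and none higher, against 4.62%. The calls gained there were Ifng (-0.65, adjusted p = 0.0015 in edgeR's test), Gbp4 (-0.52), Socs1 (-0.49) and Igtp (-0.35), while Cxcl9 (-0.14) and Cxcl10 (0.06) did not pass. The libraries labelled Tbet-KO had 5 members higher than WT no tumor, against 31.9% of tested genes, and 3 lower, against 32.3%. Those higher were Ifng (0.97), Gbp4 (0.46), Gbp2 (0.39), Cxcl9 (0.34) and Igtp (0.30), and those lower were Irgm1 (-0.32), Socs1 (-0.32) and Irf1 (-0.18), while on the T cell scale all 9 were lower, against 87.3% of tested genes, and none higher, against 2.95%. The Cxcl9 call was lost without WT no tumor replicate 1 (0.26) or replicate 3 (0.30), and the Socs1 call without replicate 3 (-0.22).

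**Figure D3:**
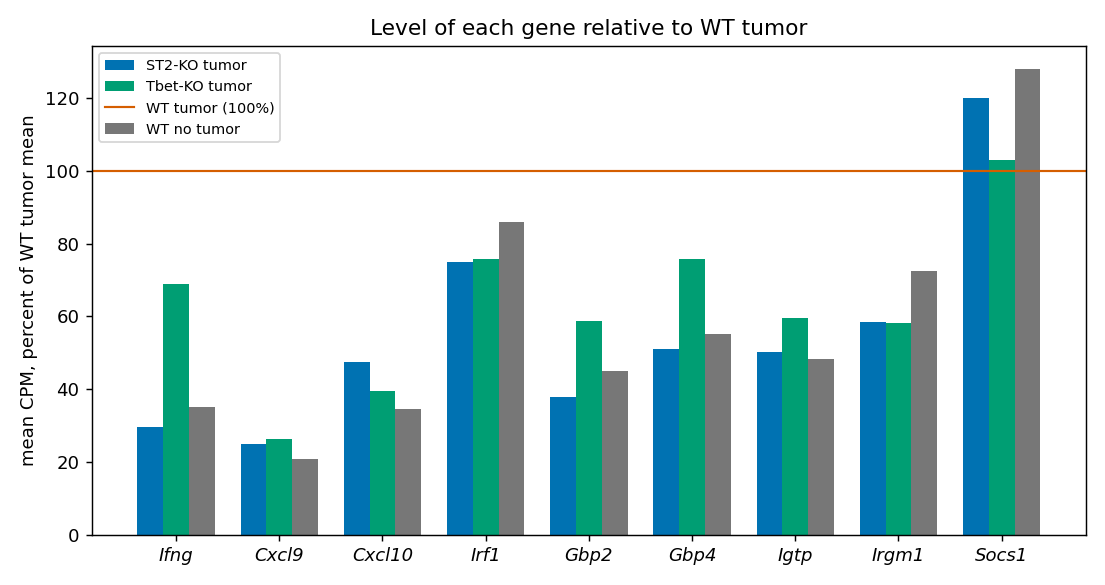
Mean CPM of each gene as a percent of its WT tumor mean (y axis) in ST2-KO tumor, Tbet-KO tumor and WT no tumor (bars, 3 libraries each), with WT tumor as the line at 100. Ifng stands at 29.6% in ST2-KO tumor and 69.0% in Tbet-KO tumor, while Cxcl9 stands at 24.9% and 26.3%, all on the TMM scale.

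On the TMM scale, Ifng and its targets therefore did not share 1 order of groups. Ifng, Gbp2 and Gbp4 ran from WT tumor through Tbet-KO and WT no tumor to ST2-KO, although for Ifng and Gbp4 the difference between the last 2 did not pass the test. Irf1 and Irgm1 had WT no tumor second and both knockouts below it, and the difference between the knockouts did not pass. Cxcl9 and Igtp had both knockouts between WT tumor and WT no tumor, and ST2-KO against WT no tumor did not pass. The mean of Cxcl10 in each knockout also lay between the WT groups, but neither knockout passed against WT no tumor, although the 3 ST2-KO libraries lay above the 3 WT no tumor libraries. Socs1 ran from WT no tumor through ST2-KO and Tbet-KO to WT tumor. No neighbours in this order passed the test, although the ST2-KO and Tbet-KO libraries did not overlap. The T cell scale changed these orders. There Tbet-KO was called below WT no tumor for Ifng (-0.53), Gbp2 (-1.11) and Gbp4 (-1.04). WT tumor was called below WT no tumor there for Gbp2 (-0.21) and Gbp4 (-0.51). Most tested genes were lower on that scale, 87.3% in Tbet-KO and 86.3% in WT tumor against WT no tumor. The medians over all genes were -1.50 and -1.36, below each of these members' values. As a description over the 12 libraries, which share their groups, the Pearson r of log2 CPM with Ifng was 0.97 for Gbp4, 0.93 for Gbp2, 0.88 for Igtp, 0.79 for Cxcl9, 0.63 for Cxcl10, 0.59 for Irf1, 0.56 for Irgm1 and -0.70 for Socs1. Among all tested genes, those most like Ifng were Caprin1 (0.98), Rps26, Cap1, Sept1 and Nampt. Those most like Cxcl9 were Ifit2 (0.99) and Epsti1, both known interferon-stimulated genes, AI607873, Mmp8, a granule protease of neutrophils, and the member Igtp.

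Counts of genes from lists of the pathway stand beside the shares of all tested genes given above, 29.0% higher and 29.4% lower in WT tumor vs WT no tumor, 23.1% and 22.8% in ST2-KO vs WT tumor and 18.1% and 20.6% in Tbet-KO vs WT tumor. With T cell scaling these shares were 1.92% and 86.3%, 84.6% and 0.639%, and 8.60% and 33.2%. Of 10 factors and receptors upstream of Ifng, 9 were higher in WT tumor than in WT no tumor and 1 lower, against 0 higher and 6 lower on the T cell scale. In the libraries labelled ST2-KO 9 were lower than in WT tumor, against 5 higher and 1 lower on the T cell scale. In those labelled Tbet-KO 5 were higher and 3 lower than in WT tumor, against 2 and 4 on the T cell scale. Eomes, a T-box factor that can drive Ifng, had 51.7 ± 2.93 CPM in Tbet-KO tumor and 25.2 ± 0.25 CPM in WT tumor, whereas it had 11.5 ± 2.02 CPM in ST2-KO tumor (SD, n = 3). Il12rb2, a chain of the IL-12 receptor, had 11.7 ± 0.47 CPM in ST2-KO tumor, 23.0 ± 3.14 in Tbet-KO tumor, 35.2 ± 4.21 in WT tumor and 11.9 ± 2.94 in WT no tumor, the same order of group means as Ifng. The other chain, Il12rb1, was at 58.4 ± 3.37 CPM in Tbet-KO tumor and 50.7 ± 3.50 CPM in WT tumor.

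Ifngr1, the ligand-binding chain of the IFN-γ receptor, had 324.1 ± 9.90 CPM in ST2-KO tumor, 472.8 ± 17.3 in Tbet-KO tumor, 523.3 ± 4.10 in WT tumor and 254.4 ± 11.2 in WT no tumor (SD, n = 3). The 4 groups did not overlap. Jak2 (-0.04) and Jak1 (-0.07), the kinases of the receptor, did not pass between Tbet-KO and WT tumor. The other groups were lower. Mean CPM of Jak2 was 176 in ST2-KO tumor, 260.5 in Tbet-KO tumor, 268.3 in WT tumor and 152.7 in WT no tumor. That of Jak1 was 392.1, 483.3, 507.3 and 369.2 in the same order.

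The families of the members were counted with and without them. Of 11 guanylate-binding protein genes, 9 rose and 1 fell in WT tumor against WT no tumor, 10 fell in ST2-KO tumor and 9 fell in Tbet-KO tumor against WT tumor. On the T cell scale these counts were 0 higher and 8 lower, 3 higher and 3 lower, and 0 higher and 10 lower. Without the members Gbp2 and Gbp4, 7 of 9 rose and 1 fell in WT tumor, 8 fell in ST2-KO tumor and 7 fell in Tbet-KO tumor, against 6 lower, 3 higher and 2 lower, and 8 lower on the T cell scale. Gbp10 had 9.73 ± 0.80 CPM in ST2-KO tumor, 6.40 ± 1.58 in Tbet-KO tumor and 16.4 ± 0.93 in WT tumor, and Gbp2b stayed under 4 CPM in group mean. Of 8 immunity-related GTPase genes, all 8 rose in WT tumor and all 8 fell in each knockout on the TMM scale, against 7 lower, 3 higher and 3 lower, and 8 lower on the T cell scale. Without Igtp and Irgm1 all 6 others did the same, against 5 lower, 2 higher and 3 lower, and 6 lower on the T cell scale. Tgtp1 and Tgtp2, near-identical copies whose shared reads may have been split or dropped in counting, stood at -1.44 and -1.45 in ST2-KO tumor and at -0.95 and -0.97 in Tbet-KO tumor. Cxcr3, the receptor of Cxcl9 and Cxcl10, had 46.6 ± 1.85 CPM in ST2-KO tumor, 28.6 ± 2.90 in Tbet-KO tumor, 88.3 ± 1.78 in WT tumor and 35.6 ± 4.60 in WT no tumor (SD, n = 3). The Tbet-KO mean lay below that of WT no tumor, although the libraries of these groups overlapped.

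Of 7 interferon regulatory factors and transactivators, 2 were higher (a share near that of all genes) and 4 lower in WT tumor against WT no tumor, 1 higher and 3 lower in ST2-KO tumor and 6 were lower in Tbet-KO tumor against WT tumor. On the T cell scale the counts were 6 lower, 6 higher and 7 lower. Ciita, the transactivator of MHC class II genes that is also active in B cells, had 35.4 ± 4.54 CPM in ST2-KO tumor, 13.7 ± 1.25 in Tbet-KO tumor, 36.7 ± 0.93 in WT tumor and 52.1 ± 5.61 in WT no tumor (SD, n = 3), an order that the B cell marker sums also had except that ST2-KO and WT tumor changed places. Irf2, a relative of Irf1 that can repress the same elements, was at -0.38 in WT tumor against WT no tumor and at -0.36 in Tbet-KO tumor against WT tumor. Batf2 had under 3 CPM in every group mean.

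Other inducible genes followed in part. Of 4 tested effectors, 3 rose in WT tumor, 3 fell in ST2-KO tumor and 3 fell in Tbet-KO tumor, against 3 lower, none either way and 3 lower on the T cell scale. Cd274, the gene of PD-L1, had 30.8 ± 3.40 CPM in ST2-KO tumor, 47.9 ± 4.19 in Tbet-KO tumor, 65.5 ± 3.12 in WT tumor and 31.6 ± 2.15 in WT no tumor. Serpina3g had 139.6 ± 6.28, 162.3 ± 1.58, 270.9 ± 9.16 and 117.9 ± 4.52 CPM in the same order, and Fcgr1, a receptor for IgG on myeloid cells, 4.73 ± 1.32, 2.87 ± 0.35, 9.59 ± 1.44 and 5.30 ± 0.39 CPM (SD, n = 3). Of 9 class I presentation genes, 5 rose in WT tumor, 7 fell in ST2-KO tumor, and 7 fell and 1 rose in Tbet-KO tumor, against 9 lower, 8 higher, and 7 lower and 1 higher on the T cell scale. B2m, the light chain of class I, stood at 0.81, -1.002 and -0.61 in the 3 comparisons on the TMM scale. Of 6 class II genes, 4 rose and 1 fell in WT tumor, 6 fell in ST2-KO tumor and 4 fell in Tbet-KO tumor. On the T cell scale the counts were 6 lower, 5 higher and 6 lower. H2-Aa stood at -1.16 and H2-Ab1 at -1.06 in Tbet-KO tumor on the TMM scale. The B cell marker sum was also lower there, at 89.5 to 95.2 CPM against 806 to 823 CPM in WT tumor, and its part was not tested.

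Of 6 JAK-STAT inhibitors, which include Socs1, 4 rose and 2 fell in WT tumor, 2 rose and 3 fell in ST2-KO tumor and 2 rose and 3 fell in Tbet-KO tumor, against 5 lower, 5 higher, and 1 higher and 3 lower on the T cell scale. Socs3, a relative of Socs1 better known for restraining IL-6 signals, had 12.2 ± 2.36 CPM in ST2-KO tumor, 17.0 ± 1.77 in Tbet-KO tumor, 23.5 ± 3.88 in WT tumor and 9.72 ± 0.63 in WT no tumor (SD, n = 3), the reverse of the Socs1 order for WT tumor and WT no tumor. Cish, induced by cytokines that signal through STAT5, was highest in Tbet-KO tumor at 77.3 ± 3.81 CPM, against 58.0 ± 1.81 CPM in WT tumor.

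Genes best known from type I interferon overlap with the IFN-γ response. Of 15 such genes, 10 rose and 1 fell in WT tumor, 14 fell in ST2-KO tumor and all 15 fell in Tbet-KO tumor, against 15 lower, 6 higher and 1 lower, and 15 lower on the T cell scale. Their median was -0.86 in ST2-KO tumor and -1.18 in Tbet-KO tumor, against 0.00 and 0.01 over all genes. Rsad2, an antiviral enzyme, had 41.9 ± 4.49 CPM in ST2-KO tumor, 26.0 ± 1.45 in Tbet-KO tumor, 90.6 ± 3.71 in WT tumor and 53.9 ± 0.92 in WT no tumor (SD, n = 3). On the TMM scale, unlike Ifng, Rsad2 was lower in Tbet-KO tumor than in ST2-KO tumor (-0.69, adjusted p = 7.8e-12 in edgeR's test). On the T cell scale Ifng did not pass between these 2 groups (0.12, adjusted p = 0.52 in edgeR's test). All 15 of these type I genes were lower there, against 85.8% of tested genes. Among 9 tested T cell cytokine genes other than Ifng, 5 rose in Tbet-KO tumor against WT tumor and 2 fell, the same counts as on the T cell scale. Il13, a type 2 cytokine, had 75.0 ± 3.42 CPM in Tbet-KO tumor and 0.54 ± 0.07 CPM in WT tumor, and Il5 had 25.4 ± 2.66 CPM in Tbet-KO tumor and 0.29 ± 0.27 CPM in WT tumor (SD, n = 3). In the same Tbet-KO libraries Ifng was below its WT tumor level on both scales.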

How the data were processed

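Per the labels and the study's methods, the authors sorted Treg cells, removed ribosomal RNA, used FastQC for read quality and STAR for alignment to mm10, and counted reads per gene. How reads shared by copies were treated, and whether strand was used, is not given in the sources used here. The deposited counts are whole numbers and were tested as deposited. The deposited log2 FPKM values equal edgeR's log2 CPM (TMM, prior count 2) less a constant for each gene, and were used for levels per length and in 1 alternative.

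In R 4.3.3 with edgeR 4.0.16, filterByExpr over the 4 groups left 13782 genes. One quasi-likelihood fit of all 12 libraries after TMM gave 6 comparisons, with Benjamini-Hochberg adjustment over all tested genes and calls at an adjusted p below 0.05. The common dispersion was 0.00305. With 3 against 3 libraries an exact permutation test cannot go below 0.1, so none was used for single genes. The method was also run on simulated data in which only a small part of the genes differed, so that run cannot probe the choice of scale. Alternatives were RLE factors, T cell scaling, library sizes without Rn45s, hemoglobin and ribosomal protein genes (the planned list also names mitochondrial genes), DESeq2 1.42.0, edgeR's likelihood ratio test, limma 3.58.1, other filters, a minimum fold, a block for the replicate number, fits of only the groups compared, and leaving out each library. A fit without the ST2-KO libraries was chosen after seeing the data.

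The members and lists were chosen with earlier results of these data known. Named were all members, the targeted genes, up to 4 genes of each pathway list with the largest called change in the first 3 comparisons (members first), and the 5 genes most like Ifng and Cxcl9. Of these, Psmb8, Tapbp, Tap2, H2-Eb1, Cd74, Pias1, Il21, Il2, Ifi44, Ifit3 and Mx2 are not described, and 1 signalling gene and its list are not reported here. Promoter windows are RefSeq's on GRCm38.p6.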

Additional observations from a re-analysis of the deposited data

How the results depend on the processing

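Among the 54 member values (9 genes in 6 comparisons), RLE size factors, DESeq2, fitting only the 2 groups compared, a filter of at least 1 CPM in 3 libraries and the fit with the replicate block changed no call or direction, and the fit without the 3 ST2-KO libraries changed none of the 27 values it could give. The replicate numbers share no deviations across groups (correlations of -0.02 to 0.02), so they do not pair the libraries, and with the replicate block the counts of members called stayed at 8 higher and 1 lower for WT tumor vs WT no tumor, 1 and 8 for ST2-KO vs WT tumor, 0 and 8 for Tbet-KO vs WT tumor, 4 and 0 for Tbet-KO vs ST2-KO, 0 and 3 for ST2-KO vs WT no tumor, and 5 and 3 for Tbet-KO vs WT no tumor.

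T cell scaling moved most counts, through the shift of all genes that it makes by construction. For WT tumor vs WT no tumor it gave 1 higher and 6 lower, with Irf1 at -1.15, Gbp2 at -0.21, Gbp4 at -0.51, Igtp at -0.32 and Irgm1 at -0.90 reversed. For ST2-KO vs WT tumor it gave 3 higher and 3 lower, with Irf1 at 0.55 and Irgm1 at 0.19 reversed. For Tbet-KO vs WT tumor the counts stayed, with Socs1 at -0.091 reversed. For Tbet-KO vs ST2-KO it gave 0 higher and 8 lower, with Cxcl9 at -1.02, Irf1 at -1.08, Gbp2 at -0.46, Gbp4 at -0.53 and Igtp at -0.85 reversed. For ST2-KO vs WT no tumor it gave 7 lower, with Cxcl9 at -0.14 and Igtp at -0.35 reversed. For Tbet-KO vs WT no tumor it gave 0 higher and 9 lower, with Ifng at -0.53, Cxcl9 at -1.17, Cxcl10 at -1.30, Gbp2 at -1.11, Gbp4 at -1.04 and Igtp at -1.20 reversed.

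A minimum log2 fold change of 1 left 5 higher and 0 lower for WT tumor vs WT no tumor, 0 higher and 4 lower for ST2-KO vs WT tumor, 2 lower for Tbet-KO vs WT tumor, 1 higher for Tbet-KO vs ST2-KO, 0 lower for ST2-KO vs WT no tumor, and 0 higher and 0 lower for Tbet-KO vs WT no tumor. For ST2-KO vs WT no tumor, 1 member, Cxcl10, passed as higher with the other library sizes, the likelihood ratio test and limma (adjusted p of 0.046, 0.045 and 0.037), and Gbp4 passed as lower with no filter on low counts (adjusted p = 0.048 in edgeR's test). With limma, 0 members were higher in ST2-KO vs WT tumor (Socs1, adjusted p = 0.069) and Cxcl9 no longer passed in Tbet-KO vs WT no tumor (adjusted p = 0.058).

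Leaving out 1 library at a time gave 8 higher and 1 lower throughout for WT tumor vs WT no tumor, 0 to 1 higher and 8 lower for ST2-KO vs WT tumor, 0 higher and 8 lower for Tbet-KO vs WT tumor, 4 higher and 0 to 1 lower for Tbet-KO vs ST2-KO, 0 to 2 higher and 3 to 4 lower for ST2-KO vs WT no tumor, and 4 to 5 higher and 2 to 3 lower for Tbet-KO vs WT no tumor. Values near 0 changed sign: over these fits Irgm1 ran from -0.088 to 0.046, Irf1 from -0.013 to 0.04 and Cxcl9 from -0.08 to 0.276 in Tbet-KO vs ST2-KO, and Socs1 from -0.218 to 0.006 in ST2-KO vs WT no tumor. The cause of these single-library changes was not tested. Depth limits Ifng and Cxcl10 most, at 60 to 310 and 63 to 278 counts per library.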
